A study of Mus musculus with 12 samples.

Results

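The genes described here encode 10 channels and channel partners through which sensory neurons respond to mechanical force, acid or both, and they were followed in dorsal root ganglia of YAC Q84 mice and wild-type (WT) mice. They were chosen by name: Piezo1, Piezo2, Tmem63b, Tmem120a, Stoml3, Asic1, Asic2, Asic3, Kcnk2 and Kcnk4, which are 10 of the 35583 genes to which transcripts were summed. Ganglion RNA was taken at 24 weeks of age and sequenced in 12 libraries, of which 3 are labelled WT male, 3 WT female, 1 Q84 male and 5 Q84 female. YAC Q84 mice carry the human ATXN3 gene, with an expanded polyglutamine repeat, on a yeast artificial chromosome under its own regulatory sequence, and they model spinocerebellar ataxia type 3; they are set here against wild-type mice that the labels describe no further. The labels give neither transgene copy number nor zygosity, and do not say whether each library came from its own animal, so the p-values reflect variation among libraries only. With 1 Q84 male, genotype and sex overlap in part, and sex was a term in the main fits that held both sexes.

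The dorsal root ganglion holds the cell bodies of the sensory neurons of skin, muscle and viscera. Piezo channels open directly when the membrane is stretched or indented, and Piezo2 is the main channel of light touch and limb position sense. Acid-sensing ion channels (ASICs) are trimeric sodium channels of the degenerin family that open when extracellular pH falls, and subunits of different genes assemble together. Two-pore potassium channels carry resting potassium current, and the TREK and TRAAK members among them, which include Kcnk2 and Kcnk4, open with membrane stretch and quieten the neuron.

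Total estimated counts ranged from 66490481 to 86891563 per library, and levels are given as TMM-scaled CPM, counts brought to a common library size, unless stated otherwise. A 1000-base Atxn3 transcript was at 62.7 to 79.4 TPM, a length-scaled level, in 5 libraries labelled Q84 and at 0 to 0.285 TPM in 5 labelled WT. It went against the label in the library labelled WT female 2, at 34.0 TPM, and in the library labelled Q84 female 5, at 0.0612 TPM. These libraries are therefore shown apart: each comparison was run on all 12 libraries as labelled and on the 10 others. Over 12 libraries edgeR's quasi-likelihood test called 0 of the 10 members at an adjusted p under 0.05, where 0.0053% of 18875 tested genes were called. An unadjusted p under 0.05 was found for 4 members and for 2695 of all 18875 genes. DESeq2 and limma-voom also called 0 members over 12 libraries. Over 10 libraries edgeR called 1 of 10 members lower and 0 higher, where 4.93% of 18721 tested genes were called lower and 1.52% higher. Here the unadjusted p was under 0.05 for 7 members and for 3785 of all 18721 genes. A count of 1 in 10 is no sign that the members differ from other genes. The median log2 fold change of the 10 members in the 10 libraries was -0.21, against 0.01 over all tested genes. The call was Asic2.

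**Figure D1:**
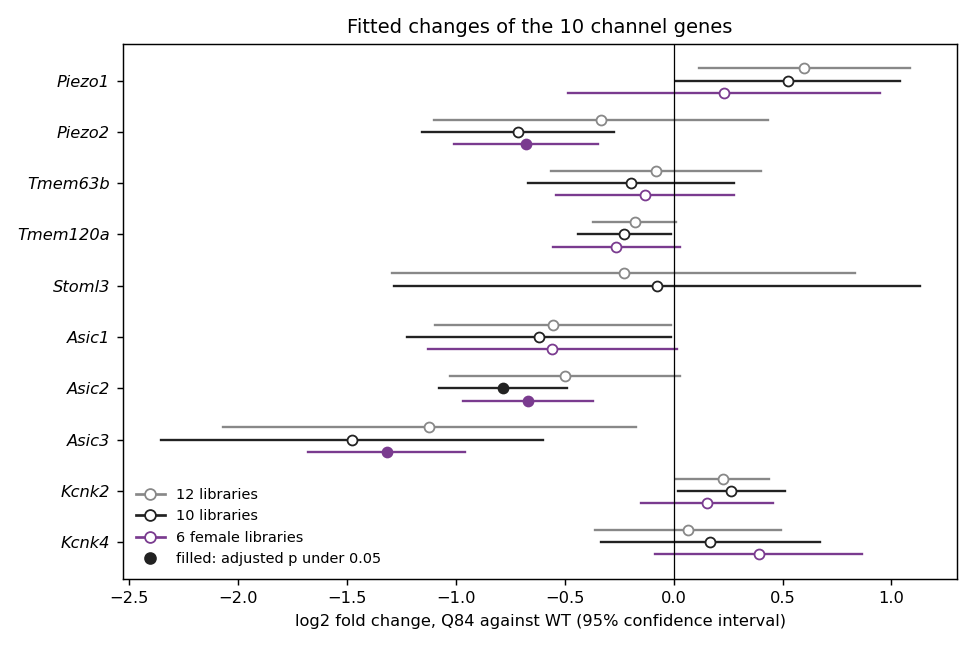
Fitted log2 fold change, Q84 against WT, with 95% confidence interval for each of the 10 genes, in the 12 libraries as labelled, the 10 libraries without WT female 2 and Q84 female 5, and the 6 female libraries among those 10. Filled points have an adjusted p under 0.05: Asic2 in the 10 libraries, and Piezo2, Asic2 and Asic3 in the 6 females. Stoml3 was too low to be tested in the females.

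Among the acid-sensing subunits, Asic2 was lower in Q84 than in WT ganglia over the 10 libraries, at 0.581 times the WT level, and Asic3 and Asic1 had lower means that did not pass the test. The Asic1 and Asic2 genes each make a pair of channel forms that begin differently and end alike. For each gene the coding start of both forms is shown, because the form decides how the subunit responds to acid and because the libraries held the forms in unequal amounts. In the GENCODE M21 transcripts (GRCm38), these are the first 60 coding bases, 5′ to 3′, with the start codon in capitals.
Asic1-201: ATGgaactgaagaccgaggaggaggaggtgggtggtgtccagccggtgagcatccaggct
Asic1-205: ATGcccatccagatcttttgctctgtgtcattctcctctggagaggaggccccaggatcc
Asic2-201: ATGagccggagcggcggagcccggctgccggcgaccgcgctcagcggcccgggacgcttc
Asic2-202: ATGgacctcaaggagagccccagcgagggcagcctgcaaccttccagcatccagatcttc
The encoded proteins have 526 residues (Asic1-201, the ASIC1a form), 559 (Asic1-205, ASIC1b), 563 (Asic2-201, ASIC2b) and 512 (Asic2-202, ASIC2a). Position by position, 15 of these 60 bases are identical in the Asic1 forms and 20 of 60 in the Asic2 forms. The last 1024 coding bases are identical between the Asic1 forms, and the last 983 between the Asic2 forms. ASIC2a is gated by acid as a homomer, while ASIC2b forms no acid-gated channel of its own and changes the currents of the subunits it joins.

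Asic2 was at 17.6, 21.9 and 25.9 CPM in WT males 1 to 3, and at 19.6 and 21.8 CPM in WT females 1 and 3. It was at 11.2 CPM in the Q84 male, and at 10.9, 13.0, 14.5 and 13.0 CPM in Q84 females 1 to 4. Every one of these 5 Q84 libraries lay below every WT library. How many of all tested genes separate in this way was not counted. Separation of the groups, here and for Asic3 and Piezo2 below, is therefore only a description. The log2 fold change over the 10 libraries was -0.78 (SE 0.14, edgeR adjusted p = 0.00445). Of the libraries shown apart, WT female 2 was at 18.8 CPM, inside the WT range, and Q84 female 5 at 28.5 CPM, the highest of all 12. Over 12 libraries the log2 fold change was -0.50 (SE 0.24, edgeR adjusted p = 0.373), and without Q84 female 5 alone it was -0.74 (edgeR adjusted p = 0.00403). The 10-library call was kept in 20 of 20 alternatives, with log2 fold changes from -0.86 to -0.64.

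Asic3, the subunit most tied to muscle and visceral acid sensing in this tissue, had the widest spread relative to its mean in WT libraries, 30.9 ± 18.9 CPM (SD, n = 5). It was at 12.3, 45.4 and 56.3 CPM in WT males 1 to 3, and at 21.8 and 18.8 CPM in WT females 1 and 3. It was at 11.4 CPM in the Q84 male, and at 10.1, 6.81, 8.29 and 7.003 CPM in Q84 females 1 to 4. These groups did not overlap on CPM, although WT male 1 stood next to the Q84 male while WT males 2 and 3 stood far above every other library. On TPM the groups did overlap, with the Q84 male at 11.21 and WT male 1 at 11.1 TPM. The log2 fold change over the 10 libraries was -1.48 (SE 0.39, edgeR adjusted p = 0.0577), which did not pass. Without WT male 1 it was -1.60 (edgeR adjusted p = 0.000471), and without Q84 male 1 it was -1.33 (edgeR adjusted p = 0.204). Asic3 was also called with DESeq2 (adjusted p = 0.00695), without the sex term (edgeR adjusted p = 0.0241), with a mean of 1 CPM as filter (edgeR adjusted p = 0.0491) and with scaling to total counts (edgeR adjusted p = 0.0494), so its call depends on these settings. WT female 2 and Q84 female 5 held 19.3 and 21.4 CPM, close to each other and to the WT females. Over 12 libraries the log2 fold change was -1.12 (SE 0.43, edgeR adjusted p = 0.269), and without Q84 female 5 it was -1.44 (edgeR adjusted p = 0.0374).

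Asic1, whose homomers also open with acid, ranged from 6.30 to 15.9 CPM in the 5 WT libraries and from 4.02 to 7.96 CPM in the 5 Q84 libraries, so the groups overlapped. WT male 3 was the highest and Q84 female 3 the lowest. Its log2 fold change over the 10 libraries was -0.62 (SE 0.27, edgeR adjusted p = 0.236). WT female 2 held 9.91 CPM and Q84 female 5 held 8.93 CPM, both within the WT range.

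**Figure D2:**
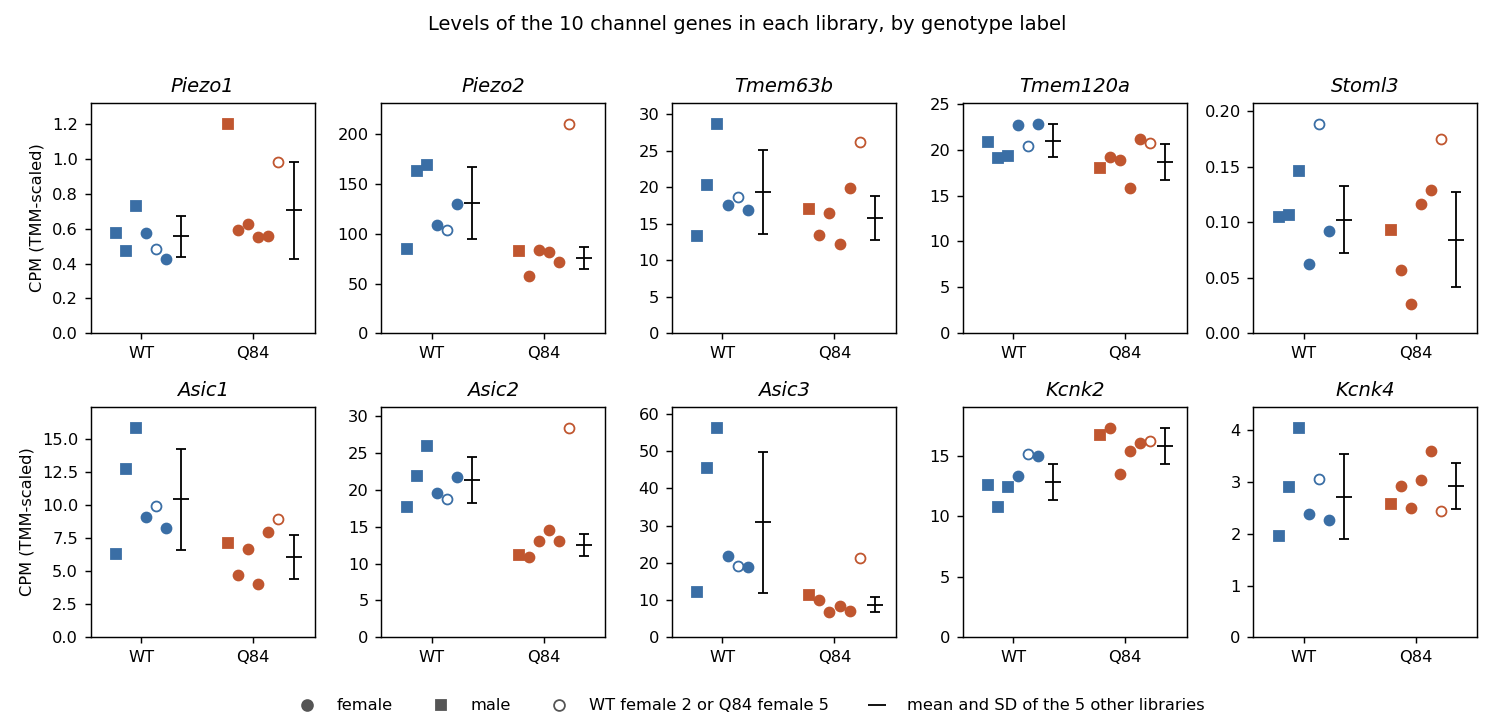
TMM-scaled CPM of each gene in each library, WT on the left and Q84 on the right, with females as circles and males as squares. Open circles are WT female 2 and Q84 female 5, and bars give the mean and SD of the 5 other libraries of each genotype. In Piezo2, Asic2 and Asic3 the filled points of the genotypes do not overlap and the open Q84 point lies above every filled Q84 point. The share of all tested genes that separate in this way was not counted.

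The forms of these genes were compared by TPM, which is scaled by transcript length; the split of shared reads between transcripts is kallisto's estimate. ASIC2a (Asic2-202) made up 89.2% of Asic2 TPM over the 12 libraries, and ASIC2b (Asic2-201) the remaining 10.8%. ASIC2a was at 10.3 ± 1.38 TPM (SD, n = 5) in WT and 5.91 ± 0.751 TPM (SD, n = 5) in Q84 libraries, while ASIC2b was at 1.41 ± 0.614 and 0.670 ± 0.263 TPM. The share of ASIC2a in Asic2 was 88.3% ± 3.09 in WT and 89.6% ± 4.59 in Q84 (SD, n = 5; exact two-sided permutation p = 0.635, adjusted p = 0.726 over 8 genes). The lower Asic2 level was thus seen without a detectable shift between its forms; the means differed by 1.25 percentage points, less than either SD.

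Of the Asic1 forms, ASIC1b (Asic1-205), which is found in sensory neurons, averaged 2.58 ± 1.45 TPM (SD, n = 12), and ASIC1a (Asic1-201), the common brain form, 0.197 ± 0.0974 TPM. Most of the remaining Asic1 signal was on Asic1-203, annotated as a processed transcript with no coding sequence, at 2.67 ± 1.09 TPM. ASIC1b was at 3.58 ± 1.71 TPM (SD, n = 5) in WT and 1.75 ± 0.726 TPM in Q84 libraries, and the ranges overlapped. Asic3 was led by Asic3-202, which encodes 530 residues, followed by Asic3-201, which encodes 440. The share of Asic3-202 was 54.7% ± 1.86 in WT and 52.2% ± 1.77 in Q84 (SD, n = 5; exact two-sided permutation p = 0.0556, adjusted p = 0.444). The share of the leading transcript differed by genotype in 0 of 8 genes tested, over 12 and over 10 libraries, by exact permutation tests, and no unadjusted p was under 0.05.

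**Figure D3:**
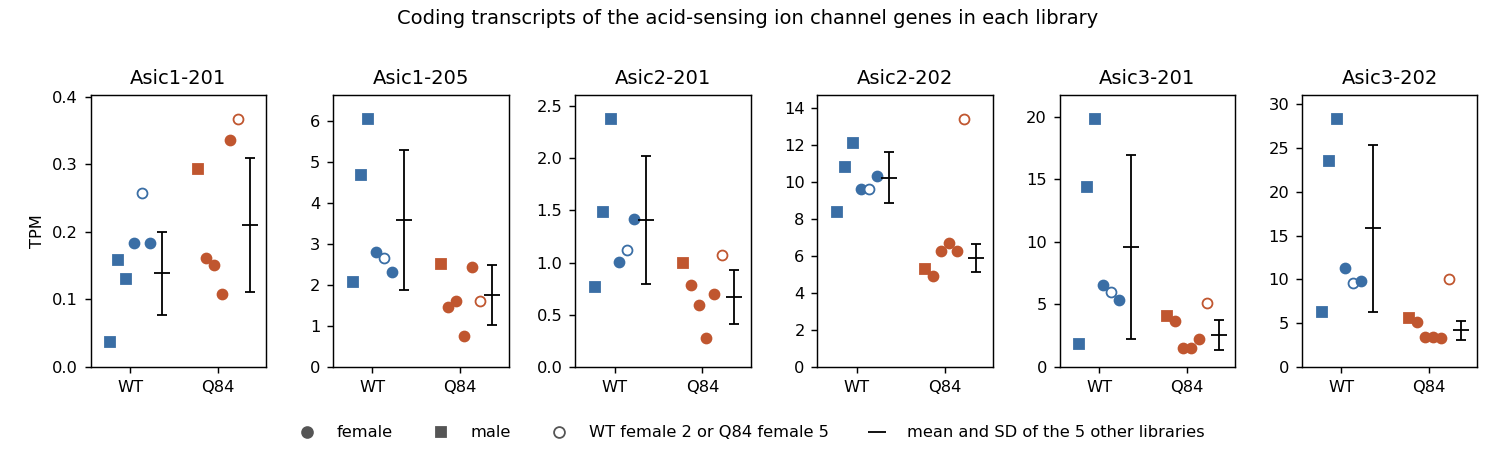
TPM of the coding transcripts of Asic1, Asic2 and Asic3 in each library, with females as circles, males as squares, open circles for WT female 2 and Q84 female 5, and bars for the mean and SD of the 5 other libraries. Asic2-202 separates the filled WT points from the filled Q84 points and is highest in the open Q84 point, at 13.4 TPM.

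Together the subunits set which ASIC trimers can form, so the share of Asic3 in the summed TPM of Asic1, Asic2 and Asic3 was taken. It was 57.4% ± 9.88 in WT and 43.2% ± 7.72 in Q84 libraries (SD, n = 5; exact two-sided permutation p = 0.0476, adjusted p = 0.143 over 3 ratios). WT males 2 and 3 held the highest shares, 67.2% and 68.0%, and WT male 1 held 45.7%, inside the Q84 range of 35.1% to 52.3%. The difference did not pass after adjustment.

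Upstream sequence of the ASIC genes is shown because Asic2 was called and Asic3 had the largest fitted change among the members. Each line runs 5′ to 3′ on the gene's strand from 250 to 62 bases before a RefSeq start (GRCm38.p6), with motif matches in capitals. Where RefSeq lists several starts of a gene, that of highest coordinate was used, and it was not assigned to a channel form. Only for Asic2 and Asic3 was the stretch set to end before the outermost GENCODE start.
Asic1 (chr15:99691974-99692162, plus strand): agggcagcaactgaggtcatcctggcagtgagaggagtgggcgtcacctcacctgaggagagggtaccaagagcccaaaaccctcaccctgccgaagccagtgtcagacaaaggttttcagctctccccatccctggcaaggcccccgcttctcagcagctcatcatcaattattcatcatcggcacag
Asic2 (chr11:81968458-81968646, minus strand): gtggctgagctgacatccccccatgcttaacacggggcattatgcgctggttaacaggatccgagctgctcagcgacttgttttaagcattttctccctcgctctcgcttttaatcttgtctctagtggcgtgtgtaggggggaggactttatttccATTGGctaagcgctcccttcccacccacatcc
Asic3 (chr5:24413201-24413389, plus strand): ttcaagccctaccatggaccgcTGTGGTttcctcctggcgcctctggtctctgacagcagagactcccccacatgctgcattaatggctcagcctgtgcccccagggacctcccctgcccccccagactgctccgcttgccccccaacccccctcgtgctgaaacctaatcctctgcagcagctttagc
Both strands were searched for a GC box with the letters GGGCGG and for the CCAAT box. The TATA box was searched as TATAAA, the core that RUNX factors bind as TGTGGT, and an E-box as CAGCTG. Asic2 held 1 CCAAT match, on the reverse strand and so printed as its complement, and Asic3 held 1 TGTGGT match. The Asic1 stretch held none of these letter runs. Of 32851 RefSeq promoters cut to the same window, 26.5% held CCAAT, 10.9% TGTGGT, 22.6% GGGCGG, 8.69% TATAAA and 9.77% CAGCTG, so such matches are common. Base composition was 57.1% G and C in Asic1, 52.9% in Asic2 and 62.4% in Asic3, against a median of 51.3% over those promoters.

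Piezo2 had the highest length-scaled level of the members and Piezo1, known from vessels and other non-neuronal cells, one of the lowest. Piezo2 was at 84.5, 163 and 169 CPM in WT males 1 to 3, and at 109 and 130 CPM in WT females 1 and 3. It was at 82.3 CPM in the Q84 male, and at 57.8, 83.6, 82.1 and 71.5 CPM in Q84 females 1 to 4. The groups did not overlap, but only just: WT male 1 was within 1 CPM of the highest of these Q84 libraries. The log2 fold change over the 10 libraries was -0.71 (SE 0.20, edgeR adjusted p = 0.0621) and did not pass; without WT male 1 it was -0.80 (edgeR adjusted p = 0.00195). WT female 2 held 104 CPM, and Q84 female 5 held 211 CPM, the highest of the 12. Over 12 libraries the log2 fold change was -0.33 (SE 0.35, edgeR adjusted p = 0.721). Without Q84 female 5 it was -0.67 (edgeR adjusted p = 0.0513), and without Q84 male 1 it was -0.17 (edgeR adjusted p = 0.911). In the 10 libraries Piezo2 was called with DESeq2 (adjusted p = 0.00496), with a mean of 1 CPM as filter (edgeR adjusted p = 0.0484) and without the sex term (edgeR adjusted p = 0.0199); over all alternatives its adjusted p ran from 0.00195 to 0.216.

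Reads of Piezo2 were spread over 15 listed transcripts. The full-length coding transcript Piezo2-202 took 41.1% of Piezo2 estimated counts, and Piezo2-205, a 3200-base transcript annotated as a target of nonsense-mediated decay, 40.2%; scaled by length, Piezo2-205 made up 63.2% of TPM and Piezo2-202 18.4%. Piezo2-202 was at 7.87 ± 3.07 TPM in WT and 3.76 ± 0.851 TPM in Q84 libraries, and Piezo2-205 at 21.7 ± 4.44 and 14.6 ± 3.88 TPM (SD, n = 5). In Q84 female 5 Piezo2-205 reached 49.3 TPM, while Piezo2-202 was at 7.83 TPM, within the WT range. The share of Piezo2-205 was 59.2% ± 6.15 in WT and 63.9% ± 7.64 in Q84 (SD, n = 5; exact two-sided permutation p = 0.294, adjusted p = 0.619).

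Piezo1 ranged from 0.428 to 0.732 CPM in the 5 WT libraries and from 0.554 to 1.20 CPM in the 5 Q84 libraries, with the Q84 male highest. Its log2 fold change over the 10 libraries was 0.52 (SE 0.24, edgeR adjusted p = 0.237). The length-scaled Piezo1 signal lay mostly on 3 short transcripts with retained introns, Piezo1-205, Piezo1-208 and Piezo1-203, which held 37.8%, 25.6% and 16.4% of its TPM. The full-length coding transcripts Piezo1-201 and Piezo1-209 averaged 0.0169 and 0.00887 TPM. Piezo1 also overlaps Ctu2 on the opposite strand over 2441 bases, and Ctu2 had a mean of 575 estimated counts. Reads from any transcript sequence that they share cannot be told apart without strand, so the Piezo1 values are uncertain. The log2 ratio of Piezo2 to Piezo1 TPM was 5.68 ± 0.629 in WT and 4.96 ± 1.06 in Q84 libraries (SD, n = 5; exact two-sided permutation p = 0.214, adjusted p = 0.321), while on CPM it differed by -1.06 (exact permutation, adjusted p = 0.0476).

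Tmem63b encodes a channel of the OSCA and TMEM63 family that opens under high membrane tension. It ranged from 13.3 to 28.7 CPM in the 5 WT libraries and from 12.2 to 19.8 CPM in the 5 Q84 libraries (log2 fold change -0.20, SE 0.21, edgeR adjusted p = 0.683), and its groups overlapped widely. Tmem63b overlaps Mrpl14, a mitochondrial ribosomal protein gene with a mean of 1687 estimated counts, over 584 bases on the opposite strand. Tmem120a, also called TACAN and first described as a mechanically gated channel of pain neurons and since disputed as one, was among the steadiest members, at 19.1 to 22.8 CPM in WT and 15.8 to 21.2 CPM in Q84 libraries (log2 fold change -0.23, SE 0.10, edgeR adjusted p = 0.219). Its interval ran from -0.44 to -0.01. Stoml3, a stomatin-like membrane protein that sensitises Piezo channels and binds ASICs, was at 0.0624 to 0.146 CPM in WT and 0.0260 to 0.129 CPM in Q84 libraries. Its interval, from -1.28 to 1.13 on the log2 scale, leaves a change of either sign undetectable at this depth.

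The stretch-gated potassium channels were not called in either direction. Kcnk2 (TREK-1) ranged from 10.8 to 15.01 CPM in the 5 WT libraries and from 13.5 to 17.3 CPM in the 5 Q84 libraries (log2 fold change 0.26, SE 0.11, edgeR adjusted p = 0.212). All 5 Q84 libraries were above the WT mean, as was Q84 female 5 at 16.2 CPM, yet WT females 2 and 3 overlapped them at 15.1 and 15.01 CPM. Kcnk4 (TRAAK) ranged from 1.96 to 4.05 CPM in WT and from 2.50 to 3.61 CPM in Q84 libraries (log2 fold change 0.17, SE 0.23, edgeR adjusted p = 0.754). The log2 ratio of Kcnk4 to Kcnk2 TPM was -1.19 ± 0.358 in WT and -1.14 ± 0.194 in Q84 libraries (SD, n = 5; exact two-sided permutation p = 0.802, adjusted p = 0.802), and the sign of that small difference turned under several alternatives. Kcnk4 overlaps Catsperz on the same strand over 1415 bases, and Kcnk2 holds the pseudogene Pdcd5-ps, so part of their counts could be shared with those genes. Asic2, Piezo1 and Piezo2 overlap further annotated genes. Examples on the opposite strand are 5530401A14Rik in Asic2, over 33910 bases, and Gm20388 in Piezo1, over 69632 bases. All overlaps given here were taken on whole gene spans, introns included, so these bases need not be sequence that the transcripts share.

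Compared per length over all 12 libraries, the mean TPM was 32.9 for Piezo2, 20.8 for Tmem120a and 18.9 for Asic3. It was 10.4 for Tmem63b, 9.70 for Asic2, 8.07 for Kcnk2, 5.51 for Asic1 and 3.59 for Kcnk4, and then 0.744 for Piezo1 and 0.0956 for Stoml3. From Piezo2 to Kcnk4 each gene's range over libraries overlapped that of the next in order. Whether neighbours there differ within the same libraries was not tested. Piezo1, at most 1.53 TPM, lay below every library's Kcnk4, at least 2.48 TPM. Stoml3, at most 0.178 TPM, lay below every library's Piezo1, at least 0.275 TPM. By group means the place of Asic3 differed: at 29.4 TPM it came second in the 5 WT libraries, above Tmem120a at 22.1 TPM. At 8.02 TPM it lay in the 5 Q84 libraries below Tmem63b at 8.76 and Kcnk2 at 8.63 TPM. Neither place held in every library. Of the WT libraries only males 2 and 3, at 43.6 and 54.6 TPM, had Asic3 above Tmem120a. In Q84 male 1 and Q84 female 1, Asic3 lay above both Tmem63b and Kcnk2.

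**Figure D4:**
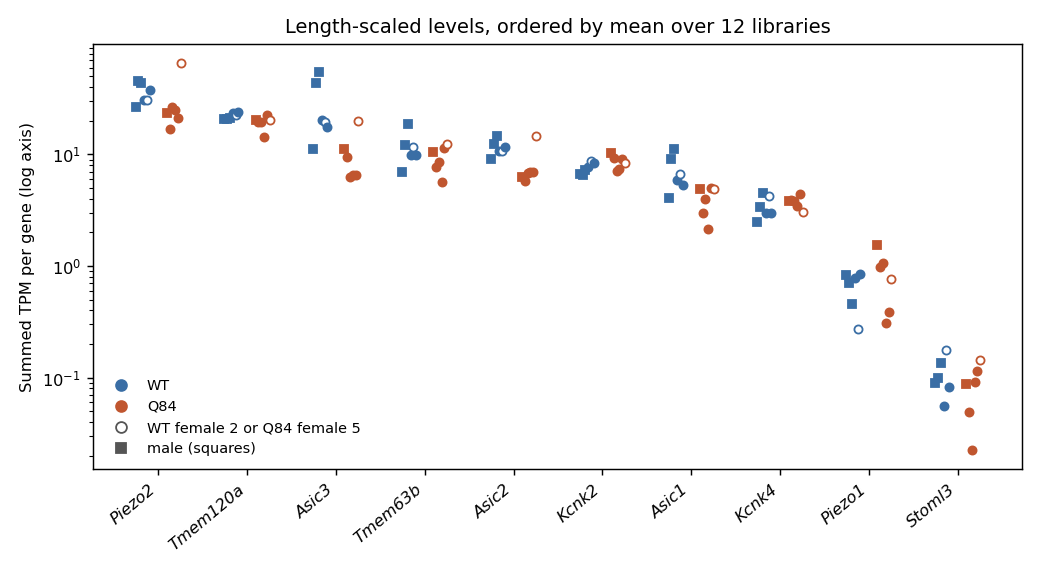
Summed TPM of each gene on a log axis, genes ordered by their mean over 12 libraries, with WT in blue, Q84 in orange, males as squares and open circles for WT female 2 and Q84 female 5. Piezo1 and Stoml3 stand below the other 8 genes in every library.

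Since 5 of the 6 Q84 libraries are female, the comparison was repeated within females. Over the 8 female libraries as labelled edgeR called 0 of 9 tested members, where 0% of 17244 genes were called, and DESeq2 called 0 members. The unadjusted p was under 0.05 for 1 member and for 1826 of all 17244 genes. Over the 6 females without WT female 2 and Q84 female 5 (2 WT and 4 Q84) it called 3 of 9 lower and 0 higher, where 3.81% of 17398 genes were called lower and 1.32% higher. The 3 were Asic3, with a log2 fold change of -1.32 (SE 0.16, edgeR adjusted p = 0.000768), Piezo2, with -0.68 (SE 0.15, edgeR adjusted p = 0.0311), and Asic2, with -0.67 (SE 0.14, edgeR adjusted p = 0.0156). Leaving out Q84 female 5 alone also gave 3 calls. Between males and females over the 12 libraries 0 of 10 members were called by edgeR, where 0.0636% of genes were called, and none had an unadjusted p under 0.05 or a DESeq2 call. Asic3 had the largest fitted sex difference, a log2 of 0.66 higher in males (95% interval -0.34 to 1.65).

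Markers of sensory neuron classes also differed between these libraries. In the 10 libraries 8 of 10 markers of non-peptidergic nociceptors and itch neurons were called lower, as were 3 of 6 of C-fibre low-threshold mechanoreceptors, 4 of 8 of peptidergic nociceptors and 4 of 15 of large myelinated touch neurons and proprioceptors. None of these was called higher, and none of these markers was at 0 in any library. The summed CPM of the non-peptidergic markers was 648 to 1306 in the 5 WT and 424 to 600.4 in the 5 Q84 libraries, with 994 in WT female 2 and 1018 in Q84 female 5. That of the large myelinated markers was 2421 to 3099 in WT and 1888 to 2356 in Q84, with 2752 in WT female 2 and 3655 in Q84 female 5, the highest of the 12 as for Asic2 and Piezo2. Of 14 pan-neuronal markers 0 were called, and their sum was 8664 to 10559 CPM in WT and 8277 to 8949 CPM in Q84 libraries. Of 6 mural cell markers only Rgs5 was called, averaging 381 ± 74.4 CPM over the WT and 147 ± 7.72 CPM over the Q84 libraries (SD, n = 5; log2 fold change -1.38), and the median of the 6 was 0.57, since the 5 others had fitted changes above 0. Keratins of surface epithelium were found in WT female 1, whose marker sum was 176 CPM against at most 0.520 CPM elsewhere. Of these 5 epithelial markers 4 were called lower in the 10 libraries, with a median log2 fold change of -9.06, and those calls rest on this 1 library. Of 7 fibroblast markers 1 was called higher, Pdgfra, with a median log2 fold change of 0.51 over the 7. No marker of red blood cells, fat or skeletal muscle was called, but Q84 male 1 had the highest sum of each, at 1826, 51.9 and 817 CPM, and their median log2 fold changes were 1.34, 1.69 and 2.46. Mitochondrial transcripts took 6.85% to 9.55% of counts in the 5 WT, 8.91% to 10.98% in the 5 Q84 and 11.9% in Q84 female 5. In whole ganglia, fewer cells of a type and less RNA per cell cannot be told apart, and the part of these markers and shares in the Asic2, Asic3 and Piezo2 values was not tested. With the pan-neuronal sum made equal in all libraries, Asic2 was called lower in the 10 libraries, and Asic3 and Piezo2 were not called. That scaling does not make the marker sums of the neuron classes equal, so it does not test their part.

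Other genes of these pathways came from 3 lists. Of 18 relatives and partners of the mechanosensitive channels, 2 were lower in the 10 libraries, 0 higher and 16 not called, with a median log2 fold change of -0.12. Over all genes of this comparison 4.93% were called lower and 1.52% higher, which is the background for the counts of the marker lists and of the lists here. The 2 were Tmc1 and Tmc2, the pore-forming subunits of hair-cell mechanotransduction, both at low levels here. Tmc1 averaged 0.932 ± 0.250 CPM over the WT and 0.383 ± 0.0855 CPM over the Q84 libraries (SD, n = 5; log2 fold change -1.15, edgeR adjusted p = 0.0299). Tmc2 was at 0.259 ± 0.0769 and 0.0213 ± 0.0271 CPM (log2 fold change -3.28, edgeR adjusted p = 0.0199), and was at 0 in Q84 females 3 and 4. These calls were frail. Tmc1 missed the threshold in 8 of 19 alternatives, 6 of them omissions of 1 library (adjusted p from 0.0567 to 0.174). Those libraries were WT male 2 or 3, WT female 1 or 3, Q84 male 1 or Q84 female 2. Tmc2 missed the threshold without Q84 male 1 (adjusted p = 0.0823) and with a term for the replicate number (edgeR adjusted p = 0.0578). Q84 female 5 held 0.860 CPM of Tmc1 and 0.241 CPM of Tmc2, within the range of the 5 WT libraries.

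Of 12 other two-pore potassium channels 11 were tested, and 4 were lower, 0 higher and 7 not called, with a median log2 fold change of -0.22. Kcnk1 (TWIK-1) averaged 86.0 ± 6.72 CPM over the WT and 66.7 ± 5.01 CPM over the Q84 libraries (SD, n = 5; log2 fold change -0.41, edgeR adjusted p = 0.0103). Kcnk10 (TREK-2), the closest relative of Kcnk2 among these and a channel of small nociceptors, was at 12.9 ± 1.54 and 9.03 ± 0.693 CPM (log2 fold change -0.51, edgeR adjusted p = 0.0239). Kcnk13 (THIK-1) was at 13.0 ± 2.50 and 8.94 ± 0.484 CPM (log2 fold change -0.60, edgeR adjusted p = 0.0185), while Q84 female 5 held 18.04 CPM. Kcnk16 (TALK-1) was at 0.225 ± 0.0716 and 0.0221 ± 0.0125 CPM (log2 fold change -3.31, edgeR adjusted p = 0.00293). Kcnk16 kept its call in all 19 alternatives, but its Q84 libraries were near the floor, at 0.0133 to 0.0424 CPM. The filter of a mean of 1 CPM left Kcnk16 out, and Q84 female 5 held 0.255 CPM of it. Kcnk1 lost its call without Q84 male 1 (adjusted p = 0.0519) and Kcnk13 without WT female 3 (adjusted p = 0.121). Kcnk10 lost its call without WT female 1, WT female 3, Q84 male 1 or Q84 female 2 (adjusted p from 0.0557 to 0.115). With a term for the replicate number Kcnk10 and Kcnk13 also lost their calls (edgeR adjusted p = 0.1298 and 0.106). With the pan-neuronal sum made equal, which moved the median of all genes to 0.15, Kcnk1 and Kcnk10 were no longer called, with log2 fold changes of -0.27 and -0.37 (edgeR adjusted p = 0.166 and 0.0740).

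Of 8 other acid-sensing channels and receptors, Asic4 and Asic5 were too low to test, and 0 of the 6 tested were called by edgeR, with a median log2 fold change of -0.30. Gpr65, a proton-sensing receptor best known in immune cells, averaged 2.15 ± 0.582 CPM over the WT and 3.55 ± 0.674 CPM over the Q84 libraries (SD, n = 5; log2 fold change 0.62, edgeR adjusted p = 0.0864). Pacc1, the proton-activated chloride channel, had a log2 fold change of -0.28 (edgeR adjusted p = 0.243). Both had an unadjusted p under 0.05. DESeq2 called Gpr65 (adjusted p = 0.0377), as did edgeR without Q84 female 4 (adjusted p = 0.0396) or without the sex term (adjusted p = 0.0411). Over 12 libraries edgeR called 0 genes in each of the 3 lists.

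The 2 genes whose pattern over the 12 libraries was most like that of Asic2, among 13115 genes compared by the root mean square difference of centred log2 CPM, were Tle1, a transcriptional co-repressor (difference 0.11), and Klf7, a transcription factor of sensory neurons (difference 0.11). Asic2 itself had a root mean square deviation of 0.44 about its mean. Tle1 was at 29.6 to 39.0 CPM in the 5 WT and 18.7 to 21.8 CPM in the 5 Q84 libraries, with 27.5 CPM in WT female 2 and 40.8 CPM in Q84 female 5. Klf7 was at 144 to 219.9 CPM in WT and 96.0 to 116 CPM in Q84 libraries, with 146 CPM in WT female 2 and 265 CPM in Q84 female 5. As for Asic2, the 5 Q84 libraries were below every WT library and Q84 female 5 was above all others. These genes were picked for that likeness, so the pattern is a description.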

How the data were processed

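Per the labels' protocols, RNA was extracted from dorsal root ganglia and poly(A)-selected libraries were made. The submitters' processing notes name kallisto 0.46.2, STAR 2.7.10b and the build GRCm39; the sources used here do not give which step used which, nor trimming, annotation release and strand. Each library has a deposited table of 116313 transcripts with the authors' estimated counts, their TPM and an effective length, per the file headers. The deposited estimated counts were summed per gene through GENCODE M21 and rounded before every fit. Of the transcripts 98.3% matched, and unmatched transcripts held 0.751% to 0.804% of counts.

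Q84 was compared with WT by edgeR 4.0.16's quasi-likelihood test (R 4.3.3) with sex as a term, TMM factors and filterByExpr, and p-values were adjusted by Benjamini-Hochberg over all genes tested at a threshold of 0.05. DESeq2 1.42.0, limma-voom (limma 3.58.1), other scalings and filters, and the omission of each library were alternatives. Transcript shares and ratios used exact two-sided permutation tests, each family adjusted by Benjamini-Hochberg. The fits were tested on simulated data. Precision is limited by the number of libraries, not by depth, except for the lowest genes. From the related lists, genes called over 12 or 10 libraries were named, or else the 3 of smallest p, of which 1 is not reported here; transcripts with at least 10% of a member's TPM were eligible for naming, and the full-length or coding forms below that were named after their values were seen. Members and lists were chosen with earlier results of these data known.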

Additional observations from a re-analysis of the deposited data

Results flagged for a closer look

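The library labelled Q84 female 5 stood far from the other libraries labelled Q84 in several members, its gap to the nearest one taking up most of the group's range. Among the 6 Q84 libraries this held for Piezo2, at 210.6 CPM where the next was at 83.6, for Asic2, at 28.5 CPM where the next was at 14.5, and for Asic3, at 21.4 CPM where the next was at 11.4. Among the 5 Q84 females it held for the same 3 genes and for Piezo1, at 0.981 CPM where the next was at 0.6246. In all, 7 of 30 combinations of a gene and a group stood out in this way, all of them in this library; chance alone marks about 1 in 20 groups. The 5 Q84 females are part of the 6 Q84 libraries, so Piezo2, Asic2 and Asic3 are each counted under both groups and the 7 are not independent. The same library lacks the Atxn3 transcript found in the other Q84 libraries.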

How the results depend on the processing

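The number of members called was 0 over 12 libraries, and 1 with the replicate block. Over 10 libraries it was 1, and 3 with DESeq2, a mean of 1 CPM as filter or no sex term, and 2 with scaling to total counts. Over 8 females it was 0, and 3 without both libraries that go against their label and 4 with the replicate block. With 1 library left out it was 0 to 2 over 12 libraries, 1 to 3 over 10 and 0 to 3 over 8 females. The block adds a term for the replicate number, and numbers 4 and 5 occur only among Q84 females. Q84 females 4 and 5 therefore take a term each, and their values do not enter the block's genotype estimate. Its counts are thus not independent of those that leave out Q84 female 5. The cause of the other shifts was not tested. Whether the replicate numbers of the labels pair the libraries was not settled. Deviations of same-numbered libraries of different groups had correlations from -0.26 to 0.39, and differently numbered libraries were not compared. The block called Piezo2, Asic1, Asic2 and Asic3 in females and Asic2 over 12 libraries.

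Signs turned in values near 0. Tmem63b was at 0.066 over 12 libraries with pan-neuronal scaling, at -0.13 in females without both libraries and at -0.34 there with the replicate block; with 1 library left out it ran from -0.22 to 0.0064 over 12 libraries and from -0.19 to 0.12 in females. Stoml3 was at 0.068 over 10 libraries with pan-neuronal scaling, and with 1 left out ran from -0.44 to 0.12 over 12 and from -0.27 to 0.096 over 10. Kcnk4 ran from -0.0088 to 0.18 over 12. Asic2 between the sexes was at 0.12 in WT alone. The log2 ratio of Kcnk4 to Kcnk2 differed by 0.15 in the females of the 12 libraries and by -0.16 on CPM over 10, and with 1 left out by -0.10 to 0.065 over 12 and -0.035 to 0.17 over 10. The share of ASIC2a differed by -0.36 to 2.59 points over 10 with 1 left out, and that of Asic3 by -14.4 to -9.91 points over 12. On CPM, Piezo2 to Piezo1 differed by -0.88 over 12 and -1.06 over 10 libraries, and the Asic3 share by -12.4 points over 12, and these passed.

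Pan-neuronal scaling moved the median log2 fold change of all genes to 0.15. Over 12 libraries edgeR called 1 gene in all, DESeq2 620, total-count scaling 15, no filter 15, no sex term 193, the block 639 and pan-neuronal scaling 0. Over 10 libraries edgeR called 1208, DESeq2 1934 and the block 701. In the 8 females edgeR called 0, DESeq2 149, the block 475, and 891 without both libraries. Between the sexes edgeR called 12, DESeq2 21 and the WT libraries alone 7. With 1 library left out the counts of all genes ran from 0 to 1082 over 12 libraries (the most without Q84 female 5), from 681 to 1978 over 10 (the most without WT male 1) and from 0 to 843 in females (the most without Q84 female 5). Genes under about 1 CPM are limited by depth, here Piezo1 and Stoml3 among the members and Tmc1, Tmc2 and Kcnk16 among the related genes.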
